A study of Mus musculus with 2 samples.

Results

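Connexins are the proteins of gap junctions. Connexin subunits assemble into a hemichannel in the membrane of a cell, and hemichannels of neighbouring cells dock to form a channel through which ions and small molecules pass directly between the cells. Gja1 is the main connexin of osteoblasts and osteocytes, which form a network of coupled cells in bone, and is also made by many endothelial cells (ECs). Gja4 and Gja5 are connexins of arterial endothelium, Gjc1 is a connexin of vascular smooth muscle and heart, and Gjb2 is an epithelial connexin of the inner ear and skin. These 5 genes were chosen for their known roles in vessels and bone, out of 28380 genes present in both deposited tables.

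The genes were measured by single-cell RNA sequencing (scRNA-seq) on the BD Rhapsody system in cells of femur and tibia from C57BL/6 mice at postnatal day 30, after magnetic removal of blood cells. Both groups carried the Dach1OE +/f transgene, which sits in the Rosa26 locus, and both received tamoxifen. The Dach1OE group also carried Apj CreERT2, a tamoxifen-inducible Cre driven by Aplnr (also called Apj), a gene of capillary ECs, so that Dach1 was switched on in ECs that expressed the driver during the first postnatal days and in their progeny. The Control group lacked the Cre. Per the methods the line was also interbred with the R26-mT/mG reporter, and each group was 1 library made from 2 pooled mice of both sexes. With 1 library per group there is no replicate library, no test was made, and the intervals given here cover counting error only.

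The libraries held 28720 Control and 32028 Dach1OE cells with 143986818 and 166999989 unique molecular identifiers (UMIs, each marking 1 captured RNA molecule). After filters on gene number and mitochondrial content, 26466 and 29317 cells remained, with medians of 3793.5 and 4055 UMIs per cell. Cells were assigned to classes by marker genes, and no connexin was a marker. The classes were arterial ECs (aECs), remodelling or type R ECs (rECs), metaphyseal or type H ECs (mpECs), sinusoidal marrow or type L ECs (bmECs), ECs marked by Scgb3a1, tip ECs, proliferating ECs (pECs), lymphatic ECs, smooth muscle cells (SMCs), pericytes, osteoblasts, osteocytes, marrow stromal cells (dpMSCs), metaphyseal stromal cells (mpMSCs), chondrocytes, fibroblasts and blood cells. Cells that scored for more than 1 lineage, 9.99% of Control and 12.1% of Dach1OE cells, were left out. The 2 libraries shared 879 cell labels, 3.32% of Control and 2.998% of Dach1OE cells, and no direction given here for all ECs or aECs changed without them. A level is the number of UMIs of a gene summed over the cells of a class, scaled to a class total of 1000000 UMIs (CPM), and it was compared between classes or libraries and not between genes.

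Every endothelial class was gated on the EC markers, and the makeup of the endothelium differed strongly between the libraries. There were 9014 Control and 9348 Dach1OE ECs. aECs were 3.88% (95% exact binomial interval 3.49 to 4.30) of Control ECs and 10.03% (9.43 to 10.7) of Dach1OE ECs. bmECs went from 43.5% to 7.85%, and Scgb3a1 ECs from 1.72% to 29.4%. ECs with no clear subtype were 24.2% and 20.02%, and 17.3% and 13.9% of ECs lay near the edge of their gate. Dach1, the gene switched on, was at 4.97 CPM in Control ECs and 201 CPM in Dach1OE ECs, and it was higher in Dach1OE in every endothelial class except the lymphatic ECs, which held no Dach1 UMI in either library. It was at 1.92 and 9.70 CPM in SMCs and at 3.61 and 5.58 CPM in osteoblasts.

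On the mouse genome GRCm38, Gja1 lies at chr10:56377330-56402513 on the plus strand and Gja5 at chr3:96904693-97077416 on the plus strand. Gja4 lies at chr4:127311421-127314039, Gjc1 at chr11:102799579-102819700 and Gjb2 at chr14:57098600-57104702, all 3 on the minus strand. Each is a protein-coding gene with at least 1 annotated transcript whose coding sequence sits in 1 exon. Gja5 is overlapped on the opposite strand by Gpr89 and by the antisense genes 9230114J08Rik and 4930573H18Rik. The tables do not state whether strand was used in counting, so reads from these genes cannot be told apart from Gja5 reads.

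The start regions of Gja1, Gja4 and Gja5 are shown because Gja4 and Gja5 were higher together in the Dach1OE library while Gja1 was lower. They run from 250 bases before to 50 bases after the RefSeq start, 5′ to 3′ on the strand of the gene, on GRCm38.p6, at chr10:56377050-56377349 (plus) for Gja1, chr4:127313990-127314289 (minus) for Gja4 and chr3:97032152-97032451 (plus) for Gja5. Capitals mark the motifs found.
Gja1: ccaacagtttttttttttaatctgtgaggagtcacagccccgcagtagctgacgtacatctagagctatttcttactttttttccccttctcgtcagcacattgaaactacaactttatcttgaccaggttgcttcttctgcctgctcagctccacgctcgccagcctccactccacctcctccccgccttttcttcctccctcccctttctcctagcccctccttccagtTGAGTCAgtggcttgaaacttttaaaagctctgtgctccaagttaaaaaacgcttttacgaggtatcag
Gja4: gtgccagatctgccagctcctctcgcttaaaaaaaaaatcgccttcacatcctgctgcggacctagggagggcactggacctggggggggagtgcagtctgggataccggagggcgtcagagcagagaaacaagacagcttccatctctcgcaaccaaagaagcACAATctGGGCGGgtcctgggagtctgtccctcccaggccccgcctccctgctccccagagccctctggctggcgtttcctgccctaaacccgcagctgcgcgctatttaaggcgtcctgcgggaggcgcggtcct
Gja5: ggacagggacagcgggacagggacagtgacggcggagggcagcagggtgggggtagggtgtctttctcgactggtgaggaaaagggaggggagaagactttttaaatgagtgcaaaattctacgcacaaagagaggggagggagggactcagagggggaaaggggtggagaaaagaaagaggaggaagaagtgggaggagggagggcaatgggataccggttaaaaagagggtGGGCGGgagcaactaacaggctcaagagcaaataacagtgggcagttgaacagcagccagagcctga
Motifs were searched as letters on both strands. Gja4 held a SOX-type match (ACAAT), separated by 2 bases from a GC box (GGGCGG), Gja5 held a GC box, and Gja1 held an AP-1 match (TGAGTCA). Of 32851 start regions of the same length, 31.0% held ACAAT, 35.7% held GGGCGG and 5.20% held TGAGTCA. No match to the RBPJ letters TGGGAA, the TATA letters TATAAA, the E-box letters CACGTG or the T-box letters GTGTGA was found in these 3 windows or in that of Gjb2, which held 2 GC boxes. The windows had GC contents of 47.7% for Gja1, 62.0% for Gja4, 55.7% for Gja5 and 70.0% for Gjb2, against a median of 52.7% over all start regions. A match describes the letters and is not a measured binding site.

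The 5 connexins were distributed in different ways over the classes. Gja4 and Gja5 were led by aECs, Gja4 was also high in mural cells (SMCs and pericytes), Gjc1 was led by pericytes, and Gja1 was led by mpMSCs, dpMSCs, osteoblasts and osteocytes. In the Control library aECs held 25.5% of all Gja4 UMIs and 40.7% of all Gja5 UMIs of the kept cells, and in the Dach1OE library 41.6% and 59.6%. Osteoblasts and osteocytes together held 32.3% of Control and 48.0% of Dach1OE Gja1 UMIs, dpMSCs and mpMSCs 37.9% and 20.99%, and ECs 12.48% and 8.77%. Mural cells held 25.4% and 36.2% of the Gjc1 UMIs. These shares move with the number of cells caught in each class.

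**Figure D1:**
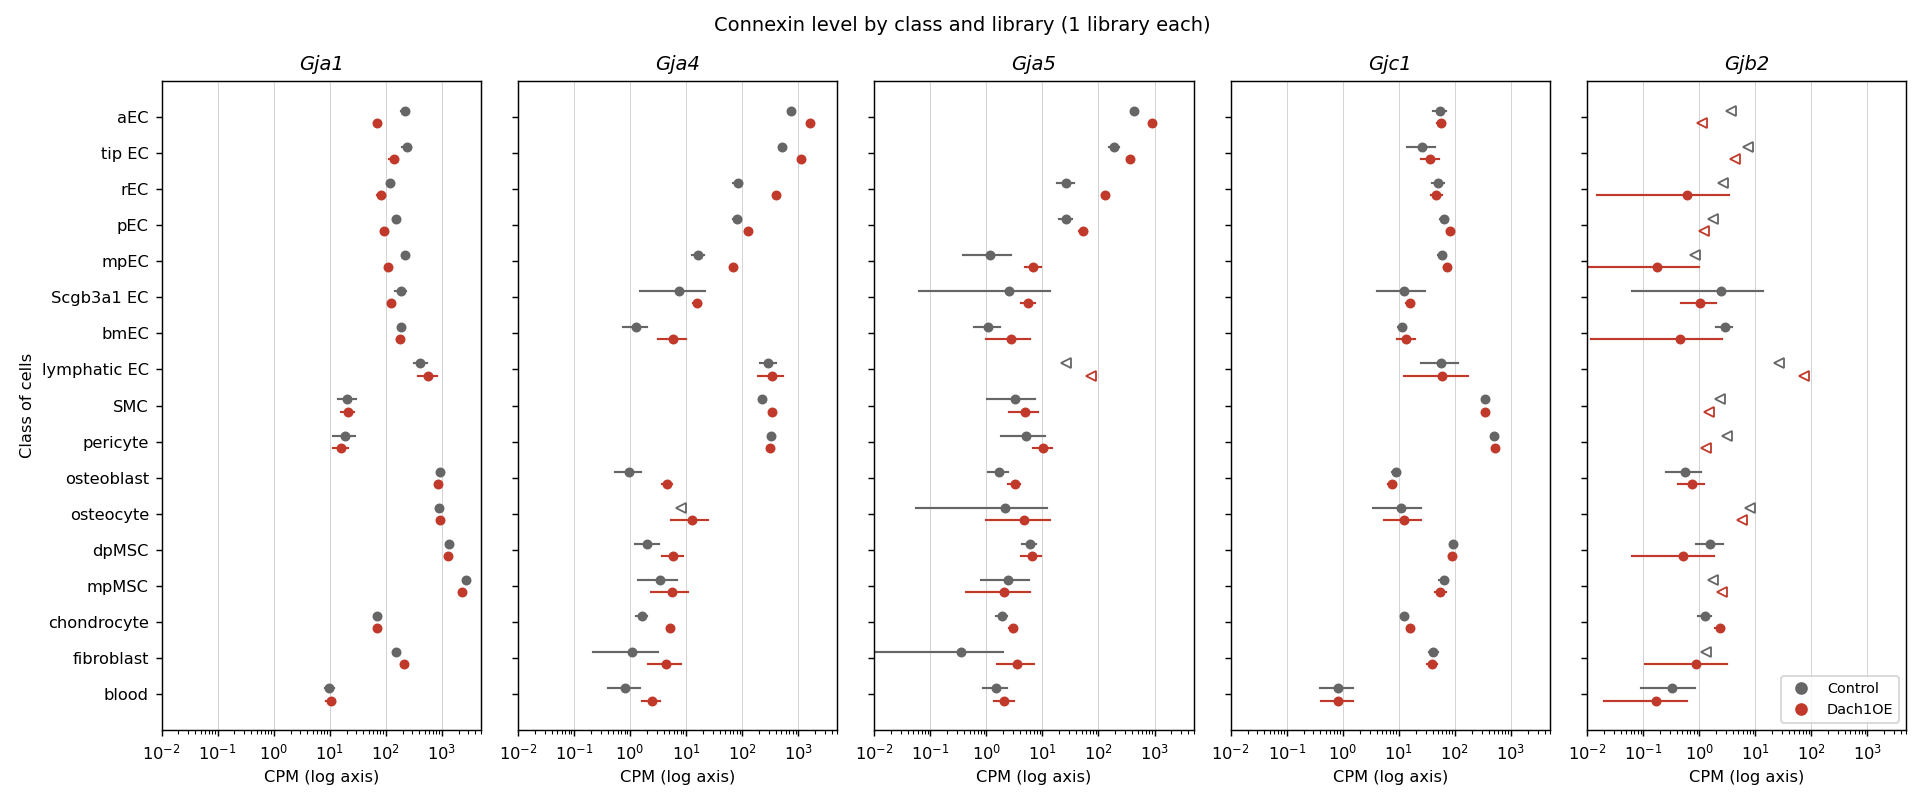
Level of each connexin (CPM on a log axis) in 17 classes of cells, grey for the Control library and red for the Dach1OE library. Points are the level over all cells of a class, bars the 95% exact Poisson interval, and open triangles the upper limit where no UMI was counted; bars are cut at the left edge of the axis. Gja4 and Gja5 are highest in aECs of both libraries, Gjc1 in pericytes and Gja1 in mpMSCs.

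Gja4, a connexin of arterial endothelium, reached 754 CPM (95% exact Poisson interval 701 to 810) in Control aECs and 1627 CPM (1584 to 1672) in Dach1OE aECs. Tip ECs followed with 511 and 1131 CPM. In Control the next classes were pericytes at 333 CPM, lymphatic ECs at 295 CPM and SMCs at 225 CPM, neighbours whose ratios had intervals that included 0 on the log2 scale. In Dach1OE the third place was taken by rECs at 405 CPM, above SMCs at 345 CPM by 0.23 on the log2 scale (0.08 to 0.38), but the cluster most like rECs was at 91.4 CPM, so this place held for the gated class and not for that cluster. Lymphatic ECs at 336 CPM and pericytes at 314 CPM did not differ from SMCs or from each other beyond their counting intervals as neighbours in that order. mpECs were far lower, at 16.4 and 69.3 CPM, and bmECs lay at 1.27 and 5.91 CPM.

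aECs exceeded all other ECs together 26.2-fold in Gja4 in Control, a log2 ratio of 4.71 (4.57 to 4.85), and 12.9-fold in Dach1OE, a log2 ratio of 3.69 (3.63 to 3.76). With graph clusters in place of the gate these log2 ratios were 6.65 and 4.69. For scale, 18.0% of genes in Control and 6.8% in Dach1OE were more than 2-fold higher in aECs than in the other ECs. In these shares sums under 3 UMIs were set to 3. Genes with few or no UMIs in the 350 Control aECs could thus count as higher. The Control share therefore also follows the small number of these cells. Within the arterial tree as read from the markers, the Gja4 level in aECs exceeded that in rECs by 3.16 (log2) in Control and 2.01 in Dach1OE, where 5.14% and 5.16% of genes were past 2-fold. rECs in turn exceeded mpECs by 2.36 and 2.55, where 6.54% and 5.89% of genes were past 2-fold. That order depended on the naming of the cells, since the cluster most like rECs was at 6.93 CPM in Control, below the 16.3 CPM of the mpEC cluster shared by the libraries, and at 91.4 CPM in Dach1OE, between 2 mpEC clusters at 31.9 and 171 CPM.

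Gja5, also a connexin of arterial endothelium, had a narrower distribution. It was at 431 CPM (391 to 474) in Control aECs and 910.5 CPM (878 to 944) in Dach1OE aECs, followed by tip ECs at 192 and 361 CPM. rECs and pECs lay next in Control at 26.4 and 26.2 CPM and could not be ordered. In Dach1OE gated rECs at 132 CPM exceeded pECs at 52.9 CPM, but the order was the other way in the graph clusters, with 20.2 CPM in the rEC cluster and 42.8 CPM in the larger pEC cluster. Mural cells, which were rich in Gja4, held little Gja5, from 3.20 to 5.02 CPM in Control and from 4.85 to 10.2 CPM in Dach1OE. The aEC level exceeded that of all other ECs 45.7-fold in Control, a log2 ratio of 5.51 (5.29 to 5.74), and 22.2-fold in Dach1OE, a log2 ratio of 4.47 (4.37 to 4.57), and with graph clusters the log2 ratios were 7.42 and 6.01. The log2 ratio of tip ECs over aECs was -1.16 in Control and -1.34 in Dach1OE for Gja5, and -0.56 and -0.53 for Gja4. Here 7.32% and 6.57% of genes were more than 2-fold lower in tip ECs.

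Over all ECs, Gja4 and Gja5 were higher in the Dach1OE library and Gja1 was lower. Gja4 stood at 52.4 CPM (49.9 to 55.1) and 285 CPM (279 to 291), with a log2 ratio of 2.44 (2.36 to 2.52). Gja5 stood at 23.2 and 133 CPM, with a log2 ratio of 2.52 (2.41 to 2.64). Of 15964 genes compared in all ECs, 3.96% were more than 2-fold higher and 3.39% more than 2-fold lower in Dach1OE, and 90 genes had a higher ratio than Gja4 and 82 a higher ratio than Gja5. Gja1 was at 191 CPM (186 to 196) in Control ECs and 113 CPM (109 to 117) in Dach1OE ECs, with a log2 ratio of -0.76 (-0.82 to -0.69). Gjc1 levels were 30.4 and 43.2 CPM, with a log2 ratio of 0.51 (0.39 to 0.63). The larger number of aECs in Dach1OE enters these values. Weighting the endothelial classes by their Control UMIs in both libraries, a setting chosen after the data were seen, gave log2 ratios of 1.49 for Gja4, 1.40 for Gja5, -0.44 for Gja1 and 0.22 for Gjc1.

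**Figure D2:**
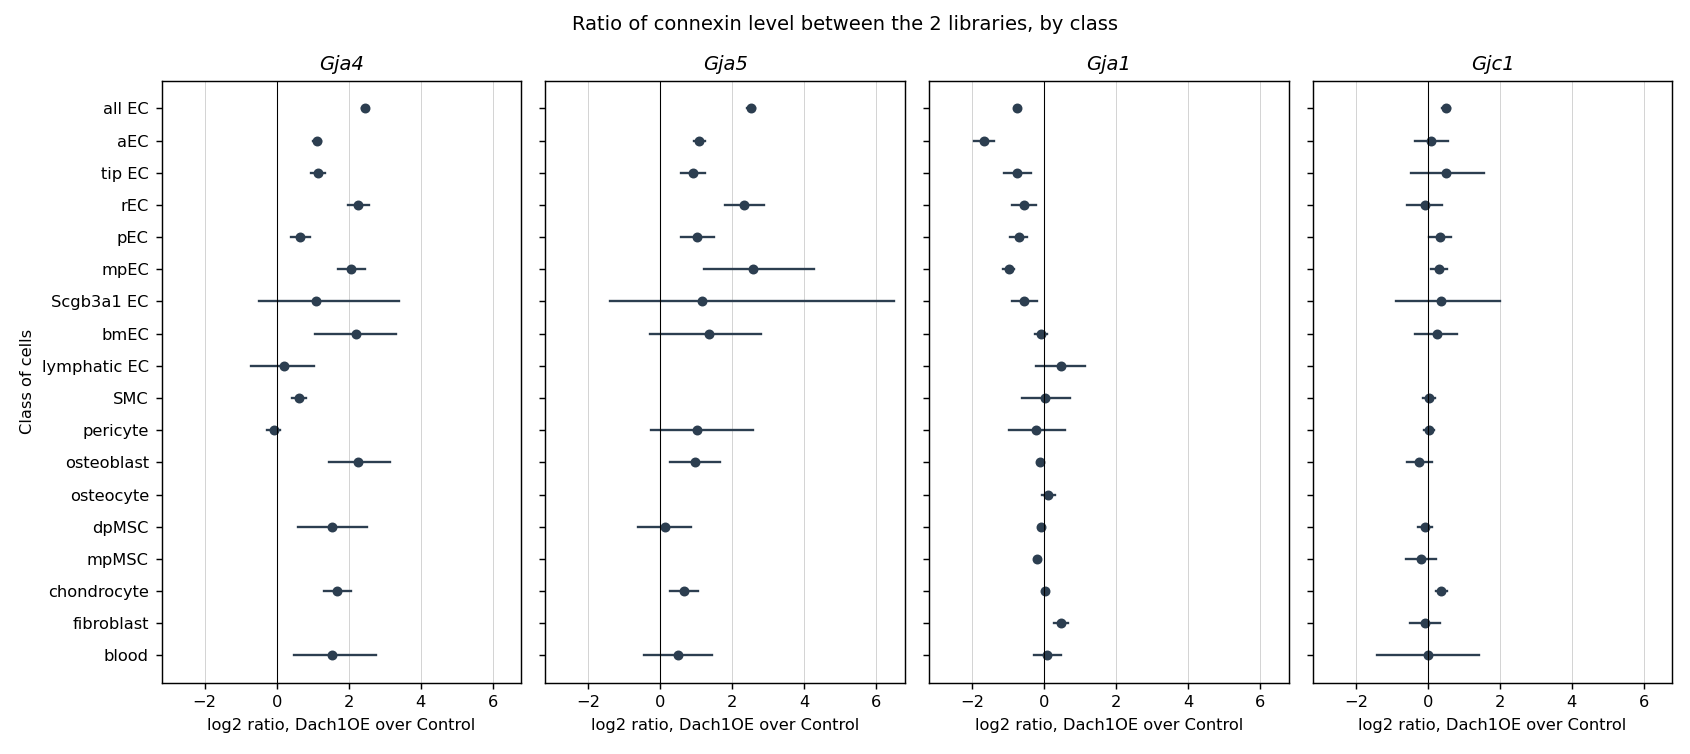
Log2 ratio of the connexin level, Dach1OE over Control, in all ECs and in each class, for Gja4, Gja5, Gja1 and Gjc1. Points are the ratio, bars its 95% exact conditional binomial interval for counting error, and classes under 20 UMIs over both libraries or without UMIs in 1 of them have no point. The Gja4 and Gja5 intervals lie above 0 in aECs, tip ECs, rECs, pECs and mpECs, and also in osteoblasts and chondrocytes. That of Gja4 also does so in bmECs, SMCs, dpMSCs and blood cells. Gja1 lies below 0 in aECs, tip ECs, rECs, pECs, mpECs and Scgb3a1 ECs. It lies closer below 0 in osteoblasts, dpMSCs and mpMSCs, and above 0 in fibroblasts. The Gjc1 intervals include 0 in SMCs and pericytes.

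Within classes, the Gja4 level was higher in Dach1OE in aECs, tip ECs, rECs, pECs and mpECs, and also in unassigned ECs. In SMCs, and at low levels in bmECs, osteoblasts, chondrocytes, dpMSCs and blood cells, it was higher as well. In aECs it was 2.16-fold higher, with a log2 ratio of 1.109 (0.998 to 1.22), where 5.68% of genes were more than 2-fold higher and 5.18% more than 2-fold lower. In rECs the log2 ratio was 2.26 (1.98 to 2.56), from levels of 84.3 and 405 CPM, where 3.88% of genes were past 2-fold. In mpECs it was 2.08 (1.71 to 2.46), where 2.68% of genes were past 2-fold. Tip ECs had 1.15 (0.95 to 1.35), where 5.33% of genes were past 2-fold, and pECs 0.66 (0.39 to 0.93). Unassigned ECs had 2.61 (2.37 to 2.85), and bmECs, with 18 UMIs in Control and 13 in Dach1OE, 2.21 (1.06 to 3.32). Osteoblasts, at levels about as low, had 2.25 (1.46 to 3.14), and no Gja4 expression was read from the bmEC values. Scgb3a1 ECs had 3 Gja4 UMIs in Control and 138 in Dach1OE, and their log2 ratio of 1.10 had a wide interval (-0.48 to 3.39).

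Gja5 was higher in aECs, rECs, tip ECs, pECs, mpECs and unassigned ECs. Its log2 ratio was 1.08 (0.93 to 1.23) in aECs, 2.32 (1.81 to 2.87) in rECs, 0.91 (0.58 to 1.25) in tip ECs and 1.02 (0.57 to 1.484) in pECs, where 2.52% of genes were more than 2-fold higher. In unassigned ECs it was 2.61 (2.23 to 3.01), and in mpECs, with 5 UMIs in Control and 39 in Dach1OE, 2.57 (1.23 to 4.27). The mpEC levels were 1.16 and 6.87 CPM, against 1.65 and 3.18 CPM in osteoblasts and 5.90 and 6.44 CPM in dpMSCs. Osteoblasts had a log2 ratio of 0.95 (0.28 to 1.66) and dpMSCs 0.13 (-0.62 to 0.84). No Gja5 expression was read from the mpEC values. bmECs and Scgb3a1 ECs held between 1 and 48 Gja5 UMIs, and their intervals included 0.

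Gja1 was lower in Dach1OE in most endothelial classes and the size of the decrease varied. The aEC levels were 219 CPM (191 to 251) and 69.3 CPM (60.6 to 79.0), with a log2 ratio of -1.66 (-1.94 to -1.39), so that aECs held more Gja1 than the other ECs in Control by 0.21 (0.01 to 0.40) on the log2 scale and less in Dach1OE, with a log2 ratio of -0.77 (-0.97 to -0.58). The mpEC levels were 218 CPM (205 to 233) and 110.3 CPM (102 to 119), with a log2 ratio of -0.98 (-1.13 to -0.84). Tip ECs had -0.75, pECs -0.70, Scgb3a1 ECs -0.56 and rECs -0.54. bmECs were close, with 189.9 CPM (183 to 197) in the Control and 179 CPM (162 to 198) in the Dach1OE library and a log2 ratio of -0.09 (-0.24 to 0.07). Lymphatic ECs, 42 Control and 16 Dach1OE cells, held 417 and 574 CPM. The Gja1 ratios of rECs and Scgb3a1 ECs turned positive under a stricter marker gate (0.08 and 0.37), which left few Scgb3a1 ECs in Control, and that of rECs also with graph clusters (0.07).

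The gated classes fell into different graph clusters in the 2 libraries. Both libraries were clustered together without alignment, and Dach1 was not left out. A shift between the libraries could therefore itself split clusters, and its part was not tested. In a graph clustering of ECs that left out connexins, 54.6% of Control aECs lay in arterial cluster 8, with 385 Control and 173 Dach1OE cells in all, and 79.0% of Dach1OE aECs lay in arterial cluster 9, with 67 and 1134 cells. Within cluster 8 the Gja4 levels were close, with 917 CPM (868 to 967) for Control and 1011 CPM (935 to 1092) for Dach1OE cells and a log2 ratio of 0.14 (0.00 to 0.28). Gja5 in the same cluster was at 410.2 and 637 CPM, a ratio of 0.63 (0.45 to 0.82), and Gja1 at 211 and 183 CPM, a ratio of -0.21 (-0.53 to 0.10). The Gja4, Gja5 and Gja1 ratios within cluster 8 were smaller in size than those of the gated aECs. Cluster 9 held less Gja1 than cluster 8 in both libraries, 34.6 CPM (11.2 to 80.8, 5 UMIs) for Control and 71.5 CPM (63.5 to 80.4) for Dach1OE cells, a ratio of 1.05 (-0.19 to 2.68). Taken alone, neither arterial cluster therefore showed the lower Gja1 of the gated Dach1OE aECs beyond counting error. Control cells of cluster 9 held 519.6 CPM (409 to 651) of Gja4 and Dach1OE cells 1736 CPM (1696 to 1778), where 21.9% of genes were more than 2-fold higher. No floor was used for that share, so genes without a UMI in the 67 Control cells counted as higher. Gja5 in cluster 9 was at 513 CPM in Control and 893 CPM in Dach1OE, a ratio of 0.80 (0.47 to 1.15).

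The levels of the aEC markers themselves shifted between the libraries. In aECs Bmx went from 108 to 37.7 CPM and Efnb2 from 614 to 391.7 CPM, whereas Hey1 went from 171 to 409, Stmn2 from 466 to 937 and Fbln5 from 877 to 1584 CPM. The summed level of the 10 bmEC markers in Control aECs was 948 CPM, against 359 CPM in Dach1OE aECs. bmECs were 43.5% of Control and 7.85% of Dach1OE ECs, and the part of free RNA in this sum was not tested. The part of these shifts in the connexin values was not tested. With a gate that left out Efnb2, Hey1 and Sox17 the Gja1 ratio in aECs was -1.94.

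The cluster most like rECs, cluster 6, held 66.4% of Control and 52.7% of Dach1OE rECs, and 18.4% of Dach1OE rECs lay in arterial cluster 9. In cluster 6 Gja4 was lower than in the gated class but still differed, with 8 UMIs and 6.93 CPM (2.99 to 13.7) in Control and 122 UMIs and 91.4 CPM (75.9 to 109) in Dach1OE, where 4.6% of genes were more than 2-fold higher. Gja5 there was at 3.47 and 20.2 CPM, and Gja1 at 81.5 and 85.4 CPM. In the mpEC cluster shared by the libraries, cluster 1, Gja4 was at 16.3 and 31.9 CPM, with a log2 ratio of 0.97 (0.47 to 1.484), and Gja1 at 214 and 181 CPM, with a ratio of -0.24 (-0.41 to -0.06). Another mpEC cluster held 4 Control and 1596 Dach1OE cells, with 171 CPM of Gja4 and 63.2 CPM of Gja1 in Dach1OE, and it took 45.2% of the Dach1OE mpECs. The same cluster took 43.5% of the Dach1OE tip ECs, whereas 68.2% of the Control tip ECs lay in arterial cluster 8. Of the Scgb3a1 ECs, 55.5% in Control lay in a cluster of unassigned ECs and 25.2% in a bmEC cluster, and 81.8% in Dach1OE lay in cluster 14. Most pECs of both libraries lay in pEC cluster 5, where Gja4 was at 38.7 and 130 CPM, a ratio of 1.75 (1.34 to 2.18) and larger than in the gated class. The ratios of tip ECs and Scgb3a1 ECs between the libraries therefore also set different clusters against each other.

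The level of a class does not show how many of its cells hold the RNA, so cells were thinned to 1000 UMIs each and those with a UMI of the gene were counted. Gja4 was found in 43.8% (95% exact binomial interval 38.4 to 49.2) of 336 Control aECs and in 71.2% (68.1 to 74.1) of 912 Dach1OE aECs. Without thinning the shares were 56.6% and 87.7%, at medians of 2361 and 2910 UMIs per cell. In rECs it was found in 5.50% (3.66 to 7.90) and 22.1% (18.8 to 25.8), in tip ECs in 32.1% and 60.0%, and in mpECs in 0.820% and 5.60%. Gja5 was found in 27.4% (22.7 to 32.5) of Control and 50% (46.7 to 53.3) of Dach1OE aECs, and in 2.04% and 8.14% of rECs. Gja1 was found in 19.05% (14.99 to 23.7) of Control and 5.92% (4.48 to 7.66) of Dach1OE aECs, and in 17.9% and 8.89% of mpECs.

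Low shares in other lineages give a level against which these shares were read. Osteoblasts, in which Gja4 is not known to be prominent, showed it in 0.0834% of 2397 Control and 0.484% of 3097 Dach1OE cells at 1000 UMIs, and without thinning in 0.583% and 2.16%, at median depths of 6403 and 6949 UMIs. Chondrocytes showed 0.144% and 0.521% and blood cells 0.0553% and 0.456% at 1000 UMIs. Some blood lineages are known to make Gja4, so the blood cells are no clean reference. bmECs had 0.0516% and 0.278% at 1000 UMIs, from 2 cells in each library, and 0.331% and 1.36% without thinning, at medians of 2987 and 2572 UMIs. Their level was 1.27 CPM from 18 UMIs in Control and 5.91 CPM from 13 UMIs in Dach1OE, against 0.95 and 4.52 CPM in osteoblasts, 1.62 and 5.19 CPM in chondrocytes and 0.830 and 2.42 CPM in blood cells. At these counts no expression of Gja4 in bmECs can be read from the values. The higher Dach1OE values of osteoblasts, chondrocytes, blood cells and bmECs moved with the total Gja4 of that library, and the part of free RNA in them was not tested. For Gja5 osteoblasts were at 0.125% and 0.258% and chondrocytes at 0.359% and 0.226% at 1000 UMIs. mpECs at 0.149% and 0.609% and Dach1OE Scgb3a1 ECs at 0.450% stood close to them. Control Scgb3a1 ECs showed Gja5 in 0 of 146 cells, with an exact binomial upper limit of 2.49%. That limit is for detection at 1000 UMIs, and a cell without a UMI at this depth may still hold the RNA.

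**Figure D3:**
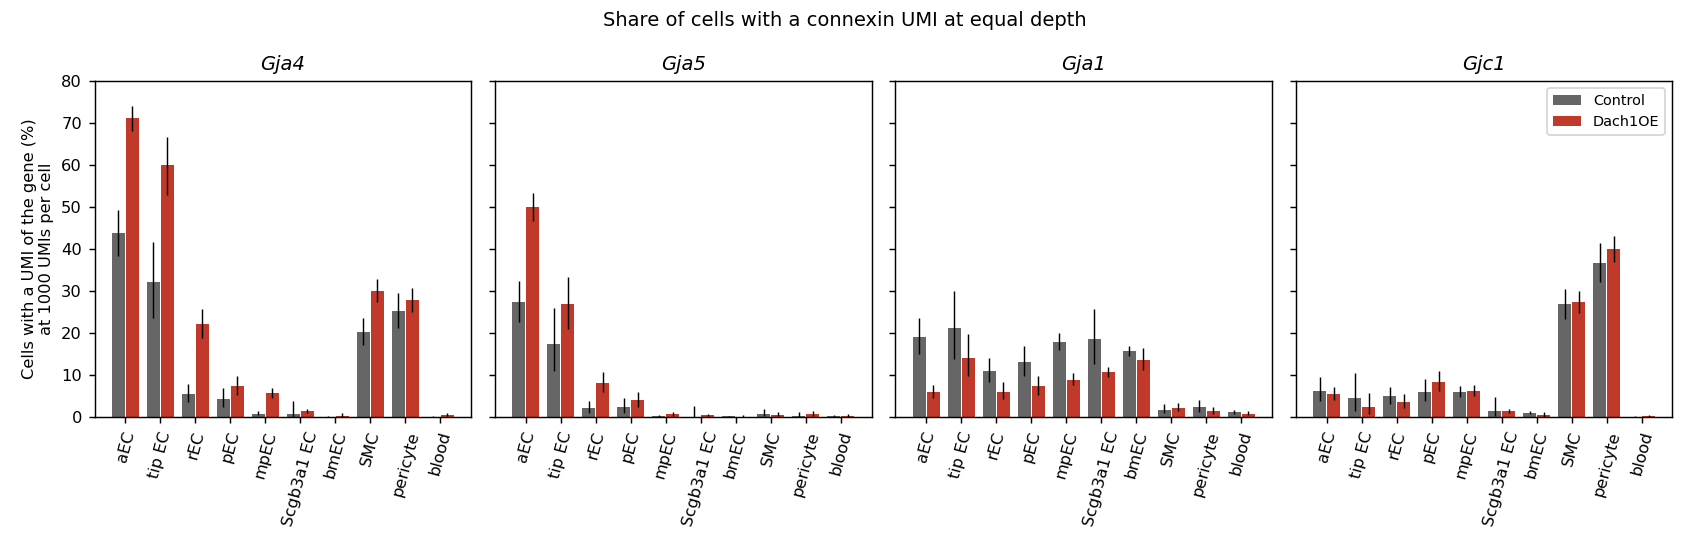
Share of cells with at least 1 UMI of Gja4, Gja5, Gja1 or Gjc1 after thinning each cell to 1000 UMIs, grey for Control and red for Dach1OE. Bars start at 0 and lines are 95% exact binomial intervals. Gja4 and Gja5 are found in the largest shares of aECs and tip ECs and in few blood cells, Gja1 is found in fewer Dach1OE than Control aECs, and Gjc1 is found mainly in SMCs and pericytes.

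Detection of Gja4 and Gja5 in the same cells was counted next. Of aECs with a Gja5 UMI at 1000 UMIs per cell, 69.6% (59.1 to 78.7) in Control and 80.7% (76.8 to 84.2) in Dach1OE also held Gja4, against 43.8% and 71.2% of all aECs. aECs with Gja4 or Gja5 but no Gja1 were 43.8% of Control and 76.0% (73.1 to 78.7) of Dach1OE aECs, and aECs with Gja1 alone were 10.7% (7.62 to 14.5) and 1.10% (0.527 to 2.01). Gja4 and Gja1 were found together in 6.85% and 4.28% of aECs. A cell without a UMI at this depth may still hold the RNA.

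Each library pooled mice of both sexes, so cells with Xist UMIs and cells with Y-linked UMIs were compared separately. Cells with neither or both were left out, which kept 2840 and 2187 of 9014 Control ECs and 2891 and 2163 of 9348 Dach1OE ECs. On the assumption, from both sexes in the labels and 2 mice in the methods, that each library held 1 mouse of each sex, this sets 1 mouse against 1 mouse, and sex and mouse go together in it. In aECs with Xist UMIs Gja4 was at 742 CPM for Control and 1721 CPM for Dach1OE, and at 826 and 1735 CPM in cells with Y-linked UMIs. Gja5 went from 388 to 931 CPM and from 453 to 1004 CPM. Gja1 went from 175 to 65.3 CPM and from 250 to 61.6 CPM, so that both Dach1OE values lay below both Control values. Over all ECs Gja4 went from 54.4 to 285 CPM and from 38.8 to 292 CPM. In rECs Gja4 was higher in both, from 89.4 to 439 CPM and from 76.6 to 427 CPM, but Gja1 was not lower in both, with 102 and 101 CPM in cells with Xist UMIs and 174 and 82.8 CPM in cells with Y-linked UMIs. Gja5 in pECs was at 20.8 and 23.1 CPM in cells with Xist UMIs and at 14.5 and 107 CPM in cells with Y-linked UMIs. The libraries were thus close in the former and apart in the latter. Both Control values lay below the 26.2 CPM of all Control pECs, so the cells left out also enter the class difference.

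**Figure D4:**
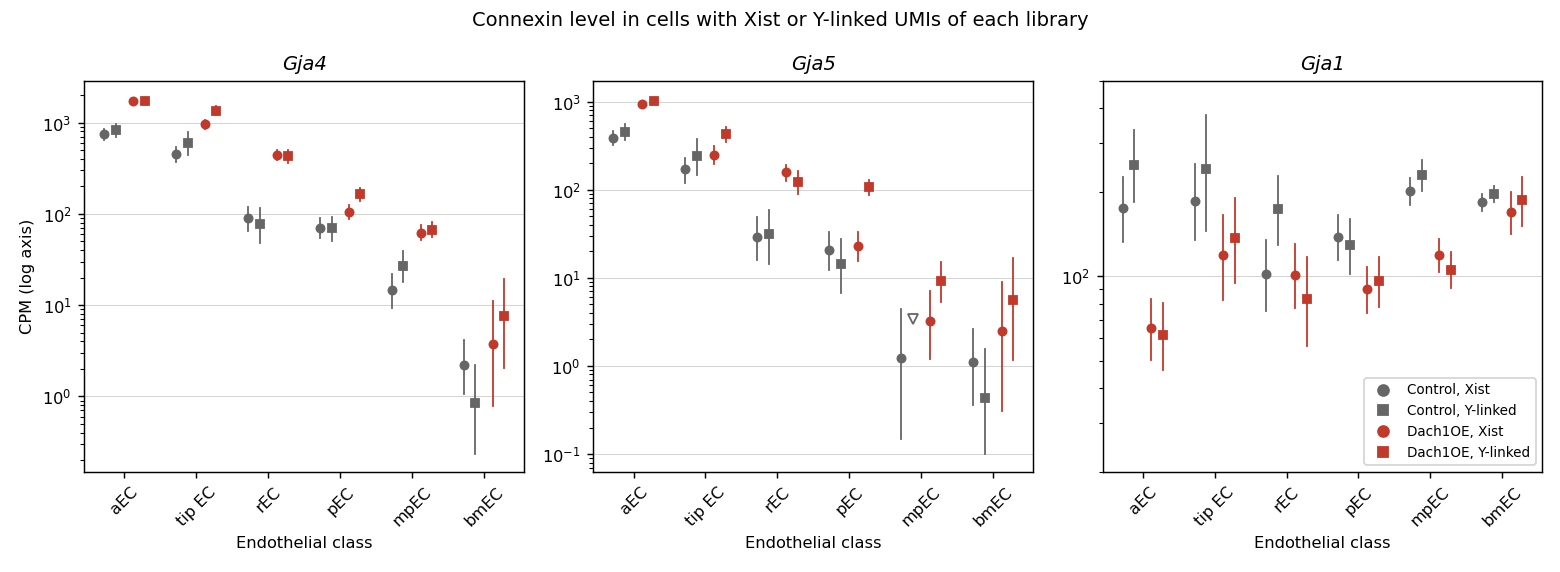
Level of Gja4, Gja5 and Gja1 (CPM, log axis) in 6 endothelial classes, split into cells with Xist UMIs (circles) and cells with Y-linked UMIs (squares) of the Control (grey) and Dach1OE (red) libraries. Lines are 95% exact Poisson intervals and the open triangle is the upper limit where no UMI was counted. In aECs both Dach1OE points lie above both Control points for Gja4 and Gja5 and below them for Gja1.

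Within the Dach1OE library, ECs in which a Dach1 UMI was found after thinning to 1000 UMIs were set against ECs without one. Over all ECs Gja4 was at 343 CPM in the 1612 cells with and 250 CPM in the 7427 cells without Dach1, a log2 ratio of 0.46 (0.32 to 0.59), and Gja5 at 146 and 122 CPM, a ratio of 0.26 (0.05 to 0.47). In aECs the Gja4 ratio was 0.30 (0.12 to 0.48), from 185 cells with and 727 cells without Dach1, and the Gja5 ratio 0.05. In rECs the Gja4 ratio was 0.55 (0.09 to 0.99). Gja1, the connexin that was lower in Dach1OE, was at 102 and 113 CPM over all ECs, a ratio of -0.15 (-0.40 to 0.10), and at 64.9 and 63.3 CPM in aECs. Without thinning, cells with a Dach1 UMI were also deeper, at medians of 3383 and 2444 UMIs over all ECs, and more cells counted as positive. Gja1 was then lower in cells with Dach1, with ratios of -0.27 (-0.37 to -0.17) over all ECs, -0.55 (-0.95 to -0.16) in aECs and -0.94 (-1.21 to -0.67) in mpECs, and Gja4 and Gja5 were at 0.67 and 0.63 over all ECs. Gjc1 in mpECs was at 113 and 62.1 CPM after thinning, a ratio of 0.86 (0.18 to 1.496) from 27 and 87 UMIs, which was -0.056 (-0.35 to 0.24) without it. Over all ECs the thinned differences of Gja4, Gja5 and Gja1 were smaller than those between the libraries, and at this depth a cell without a Dach1 UMI may still hold the transgene RNA.

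**Figure D5:**
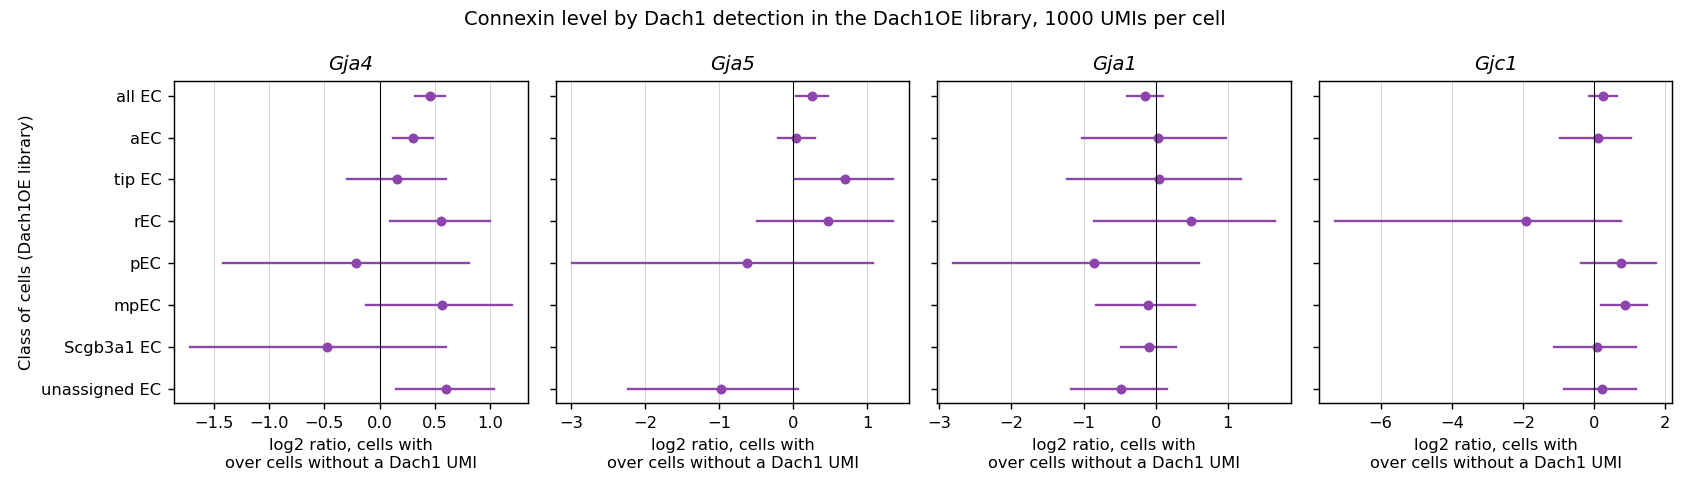
Log2 ratio of the connexin level in ECs of the Dach1OE library with a Dach1 UMI over ECs without one, after thinning to 1000 UMIs per cell, with 95% exact conditional binomial intervals; classes with under 20 UMIs of the gene have no point. The Gja4 interval lies above 0 in all ECs, aECs, rECs and unassigned ECs, that of Gja5 in all ECs and tip ECs and that of Gjc1 in mpECs, and the Gja1 intervals include 0 in each class shown at this depth, but not without thinning in all ECs, aECs and mpECs.

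Gjc1 marked the mural cells. Pericytes held 497 CPM (458 to 539) in Control and 510.1 CPM (484 to 537) in Dach1OE, and SMCs 343 CPM (315 to 373) and 350.3 CPM (327 to 374). The pericyte level exceeded the SMC level by 0.53 (0.36 to 0.71) and 0.54 (0.42 to 0.67) on the log2 scale, short of 2-fold. Between the libraries the log2 ratio was 0.04 (-0.10 to 0.18) in pericytes and 0.03 (-0.13 to 0.19) in SMCs. Mural cells together exceeded ECs 13.5-fold in Control, where 15.0% of genes were more than 2-fold higher in mural cells, and 10.1-fold in Dach1OE, where 14.4% were. Gjc1 was found in 36.7% and 40.1% of pericytes and 26.9% and 27.4% of SMCs at 1000 UMIs, against 0.0553% and 0.114% of blood cells.

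Among ECs Gjc1 did not follow Gja4 and Gja5. It was at 57.9 and 71.7 CPM in mpECs, 64.3 and 81.2 CPM in pECs, 53.6 and 56.8 CPM in aECs and 49.9 and 46.8 CPM in rECs, but at 11.47 and 13.6 CPM in bmECs and 12.4 and 16.1 CPM in Scgb3a1 ECs. mpECs exceeded bmECs by log2 ratios of 2.34 in Control and 2.40 in Dach1OE, where 6.31% and 7.57% of genes were past 2-fold. Its ratio between the libraries was 0.08 (-0.37 to 0.55) in aECs and 0.31 (0.08 to 0.54) in mpECs. dpMSCs held 92.2 and 87.6 CPM, next after pericytes and SMCs in Control, while in Dach1OE they could not be ordered against pECs.

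In mural cells Gja4 was higher in Dach1OE SMCs, and no difference was detectable in pericytes at this depth. SMCs held 225 CPM of Gja4 in the Control and 345 CPM in the Dach1OE library, a log2 ratio of 0.62 (0.44 to 0.80), and with under 10% mitochondrial UMIs, which left 51 Control and 80 Dach1OE SMCs, it was 1.57 (0.68 to 2.56). Cells of both sexes showed it, with 226 and 320.2 CPM in cells with Xist UMIs and 221 and 353 CPM in cells with Y-linked UMIs. Pericytes had 333 and 314 CPM, a ratio of -0.08 (-0.26 to 0.09), and the sexes went opposite ways, with 351 and 274 CPM in cells with Xist UMIs and 255 and 309 CPM in cells with Y-linked UMIs. The log2 ratio of pericytes over SMCs was 0.57 in Control and -0.14 in Dach1OE. The aEC markers summed to 94.1 and 108 CPM in SMCs and 159.9 and 188 CPM in pericytes, against 4058 and 5517 CPM in aECs, and the 8 EC markers to 498 and 493 CPM in SMCs against 8999.6 and 8799 CPM in aECs. Gja1 was low in mural cells, from 15.9 to 21.01 CPM.

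Gja1 was at its highest in the stromal and bone-forming cells. mpMSCs held 2659 and 2327 CPM, dpMSCs 1375 and 1288 CPM, osteoblasts 923 and 849.9 CPM and osteocytes 876 and 949 CPM in the respective libraries Control and Dach1OE. The mpMSC level exceeded the osteoblast level by 1.53 and 1.45 on the log2 scale, where 31.2% and 37.3% of all genes were more than 2-fold higher. It exceeded the dpMSC level by 0.95 and 0.85. Osteocytes and osteoblasts were close, with a log2 ratio of -0.08 (-0.22 to 0.07) in Control and 0.16 (0.04 to 0.28) in Dach1OE. At 1000 UMIs Gja1 was found in 83.6% and 80.1% of mpMSCs, 69.7% and 67.3% of dpMSCs, 55.4% and 52.6% of osteoblasts and 53.9% and 64.8% of osteocytes, against 1.16% and 0.799% of blood cells.

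Between the libraries Gja1 differed little in these classes. The log2 ratio was -0.12 (-0.15 to -0.09) in osteoblasts, -0.09 (-0.14 to -0.05) in dpMSCs and -0.19 (-0.26 to -0.13) in mpMSCs, and the osteoblast value was lower in Dach1OE in cells of either sex, 948 and 858 CPM with Xist UMIs and 891 and 831 CPM with Y-linked UMIs. In the osteocytes, 76 Control and 108 Dach1OE cells, the ratio was 0.12 (-0.07 to 0.30), and the sexes went opposite ways, from 766 to 999.9 CPM with Xist UMIs and from 1223 to 821 CPM with Y-linked UMIs, in 13 to 38 cells per group. Fibroblasts went from 152 to 212 CPM, a ratio of 0.48 (0.29 to 0.67), and chondrocytes were at 68.6 and 69.9 CPM.

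Gjb2 was rare. Control ECs held 47 UMIs and Dach1OE ECs 17, of which 40 in Control came from 38 of 3922 bmECs, and no bmEC held more than 2. The bmEC level was 2.83 CPM with 40 UMIs in the Control library and 0.454 CPM with 1 UMI in Dach1OE. Over all ECs the log2 ratio was -1.49 (-2.38 to -0.66). The smaller number of bmECs in Dach1OE, 734 against 3922 in Control, enters this ratio. No Gjb2 UMI was found in aECs, tip ECs, pECs, SMCs, pericytes or osteocytes of either library. Chondrocytes held 56 and 135 UMIs, or 1.26 CPM (0.952 to 1.64) and 2.31 CPM (1.94 to 2.74), in 36 of 4184 and 53 of 5768 cells. They were unevenly spread, since 12 of the Dach1OE chondrocytes held 86 of the 135 UMIs and a single cell held 33, so the Poisson interval understates the error. In cells with Xist UMIs the ratio pointed the other way (log2 -1.43). In cells that no marker list claimed, 3 of 1122 Control cells held 69 of 73 UMIs and 2 of 1271 Dach1OE cells held 32 of 40. Of those 5 cells, 3 also held Gjb6, with 22 UMIs in all, a connexin often made together with Gjb2 and chosen for naming after its values were seen.

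Few of the other gap junction genes could be compared. Of the other 15 connexins, 2 had enough UMIs in all ECs, 0 in aECs, 4 in chondrocytes and 1 in fibroblasts. The connexin Gjc3 was more than 2-fold higher in all ECs, from 12 and 25 UMIs, with a log2 ratio of 1.04 (-0.01 to 2.17). Gjb5 was more than 2-fold higher in fibroblasts, from 24 and 43 UMIs, with a ratio of 1.15 (0.40 to 1.94), where 1.97% of genes were. Both were named after their values were seen. Panx3, a pannexin of cartilage and bone, was at 2584 and 2344 CPM in chondrocytes and at 188 and 193 CPM in osteoblasts. Of 10 scaffold, adhesion and turnover partners 9 were compared in all ECs and 0 were past 2-fold in either direction, with a median log2 ratio of 0.08 against 0.03 for all genes. In rECs 2 of 9 partners were more than 2-fold higher, where 3.88% of all genes were, and in pECs 2 of 9 were more than 2-fold lower, where 2.92% were. Dbn1, an actin-binding partner of Gja1, was 1 of the former, with 43.3 and 91.2 CPM in rECs.

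Of 14 listed arteriovenous regulators, all were compared in all ECs, 3 were more than 2-fold higher and 0 more than 2-fold lower, where 3.96% and 3.39% of all genes were. Their median log2 ratio was 0.31 against 0.03 for all genes. In aECs 3 of 14 were more than 2-fold higher and 1 lower, where 5.68% and 5.18% of all genes were. In rECs 2 of 13 compared regulators were higher, where 3.88% of all genes were, and in mpECs 0 of 13, where 2.68% were. The 3 that were higher over all ECs were Sox7 and the Notch targets Hey1 and Hey2, with 40.4 and 88.8 CPM, 12.6 and 71.3 CPM, and 0.824 and 5.33 CPM. Over all ECs Sox17, an arterial factor, went from 105 to 197 CPM, and Nr2f2, a venous factor, from 793 to 453 CPM. In aECs Nr2f2 went from 232 to 56.1 CPM, a log2 ratio of -2.04. Sox17, Hey1 and Efnb2 were markers of the aEC gate, so their aEC levels also set who was counted as an aEC. In mural cells, 0 of the 4 mural regulators passed 2-fold in SMCs, where 2.42% of all genes were higher and 1.9% lower, or in pericytes, where 3.33% and 1.68% were. In osteocytes 1 of 5 compared bone regulators was more than 2-fold higher, where 4.12% of genes were, and their median log2 ratio was 0.021 against 0.045 for all genes. It was Sost, an inhibitor of bone formation made by osteocytes, at 77.9 and 209 CPM. Sost was a marker of the osteocyte gate, so its level also set which cells were counted as osteocytes. The same holds for the bone regulator Sp7 in the osteoblast gate and the mural regulator Notch3 in the pericyte gate. In osteoblasts 0 of 4 compared bone regulators passed 2-fold, where 0.924% of all genes were higher and 2.5% lower. At such shares, none of 4 genes past 2-fold is not a result about these lists.

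Over 34 profiles, 17 classes in each of the 2 libraries, the genes whose log2 level was most like that of Gja4 were Bcam (Pearson r = 0.89), Prdm16 (0.89), Efnb2 (0.88, a gate marker), Col18a1 (0.87) and Filip1 (0.86). For Gja5 they were Egfl8 (0.93), Sema3g (0.91, a gate marker), Mecom (0.89), Lama3 (0.89) and Ssu2 (0.87). Gjc1 was most like Cald1 (0.91), Tgfb1i1 (0.90), Zc2hc1a (0.89), Olfml2a (0.88) and Phlda3 (0.86), and Gja1 most like Flrt2 (0.88), Tmem59 (0.84), Cd1d1 (0.82), Cadps2 (0.82) and Limch1 (0.77, a gate marker). Gja4 and Gja5 had r = 0.66 with each other, Gja4 and Gjc1 0.60, and Gja1 and Gja4 -0.32. The profiles share their library and their scaling and are no independent samples, so these values describe likeness and carry no test.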

How the data were processed

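Transcriptomes of single cells were measured in 1 Control and 1 Dach1OE library. The authors deposited raw UMI counts, one entry per cell and gene, and per the file headers they came from version 1.11 of the WTA Analysis Pipeline of BD Rhapsody (the methods give another version), the mouse genome GRCm38 and GENCODE vM19. Intronic reads were counted, so unspliced RNA adds to a gene's value, and whether strand was used is not given in the sources used here. The measure was the UMI count after recursive substitution error correction (RSEC), the pipeline's merging of identifiers that differ by sequencing errors, with no normalization. Sequencing depth was 1.51 reads per UMI in Control and 1.45 in Dach1OE.

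The study's cell filters were used, which keep cells of 500 to 6000 genes whose mitochondrial share is under 25%. Each cell was assigned to the broad class with the highest mean scaled marker level, with at least 3 markers detected. Cells whose score for another lineage was over 0.5 of their own were left out as mixed, in place of a doublet caller. ECs took a subtype from standardized scores (at least 2 markers, a score of at least 0.5 and a lead of at least 0.25). The names therefore mean cells like that type. The members, marker lists and other gene lists were chosen with earlier results of these data known.

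UMIs were summed per class and library and given as CPM with exact Poisson intervals, ratios with exact conditional binomial intervals and shares with Clopper-Pearson intervals, all at 95%. No p-value was computed. Ratios were computed for genes with at least 20 UMIs over both libraries in the class. The share of those past 2-fold is the background given beside the connexins. For this share sums under 3 UMIs were set to 3, except within single graph clusters, where no floor was used. Other listed genes were named with at least 100 UMIs and an interval beyond 1.5-fold. For each connexin the 5 genes of highest Pearson correlation of log2(CPM + 1) among genes with at least 200 UMIs were named; those of Gjb2, which had few UMIs, are not given. Panx3, Gjb6, Gjc3, Gjb5 and the values within single graph clusters were chosen after the data were seen. Graph clusters (2000 variable genes without connexins, 30 components, 20 neighbours, no alignment of the libraries) were an alternative naming. Other alternatives were raw UMIs, stricter cell filters, stricter or reduced gates, mixed cells kept, TMM scaling (trimmed mean of M-values), thinning, cells of either sex, other weights of the endothelial classes and cell labels present in both libraries left out. The ratio and its interval were tested on simulated data. Python 3.11.15, numpy 2.4.6, pandas 2.3.3, scipy 1.17.1, scikit-learn 1.9.0, igraph 0.11.9 and matplotlib 3.10.9 were used. Gene coordinates come from GENCODE vM21 on GRCm38 and are 1-based. Start regions of 4 connexins were matched by symbol in RefSeq.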

Additional observations from a re-analysis of the deposited data

Results flagged for a closer look

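The Dach1OE over Control ratio of Gja1 pointed in opposite directions in different classes, with intervals that left out 0 on either side. The log2 ratio was 0.48 in fibroblasts, and -1.66 in aECs, -0.54 in rECs, -0.56 in Scgb3a1 ECs, -0.98 in mpECs, -0.75 in tip ECs, -0.70 in pECs, -0.12 in osteoblasts, -0.094 in dpMSCs and -0.19 in mpMSCs. For Gjb2 the log2 ratio was 0.88 in chondrocytes, where a few cells held most UMIs, and -2.64 (-7.98 to -0.079) in bmECs, where Dach1OE held 1 UMI. With 1 library per group the difference between these classes was not tested.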

How the results depend on the processing

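Each alternative that was run kept the direction of the log2 ratios of Gja4, Gja5, Gja1, Gjc1 and Gjb2 over all ECs, of Gja4, Gja5 and Gja1 in aECs, and of Gja4 and Gja5 in aECs over the other ECs. The graph-cluster setting pools both arterial clusters, and within each of them alone the Gja1 interval included 0. Of the recomputed values of these ratios, 107 moved by less than the counting interval and 43 by more, and the cause was not tested. Over all ECs, thinning to 1000 UMIs gave 2.34 for Gja4, 2.21 for Gja5 and 0.305 for Gjc1. Cells with Y-linked UMIs gave 2.91, 3.13 and 0.81 for these 3 genes, and cells with Xist UMIs gave -0.68 for Gja1, 0.302 for Gjc1 and -2.68 for Gjb2. Equal weights of the endothelial classes gave 1.22 for Gja4, 1.113 for Gja5 and 0.23 for Gjc1, and Control weights 1.49, 1.40 and 0.22, with -0.44 for Gja1. In aECs, Gja1 was at -1.17 with graph clusters, -1.97 with thinning, -2.02 in cells with Y-linked UMIs and -1.94 with reduced gate markers. Gja4 in aECs was at 0.96 with 1 more marker, 0.89 with graph clusters and 0.99 with thinning, and Gja5 at 1.24 under 10% mitochondrial UMIs, 0.90 with thinning and 1.26 in cells with Xist UMIs. For Gja4 in aECs over the other ECs, Control gave 5.256 with 1 more marker, 6.65 with graph clusters, 5.05 with thinning, 4.51 in cells with Xist UMIs and 5.265 in cells with Y-linked UMIs. Dach1OE gave 3.78 under 10% mitochondrial UMIs, 3.95 with 1 more marker, 4.69 with graph clusters and 3.51 with reduced gate markers. For Gja5 in the same comparison, Control gave 5.996 with 1 more marker, 7.42 with graph clusters, 5.76 with thinning and 6.08 in cells with Y-linked UMIs, and Dach1OE gave 4.81 with 1 more marker, 6.01 with graph clusters, 4.583 with thinning and 4.590 in cells with Xist UMIs.

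Among the values of single genes and classes, 7 turned against a reported ratio whose interval left out 0, 243 moved by more than the counting interval and 1024 by less. Ratios whose reported interval included 0 have no direction here, and 36 of them took the opposite sign under at least 1 alternative, among them Gja1 in SMCs and osteocytes, Gja4 in pericytes and lymphatic ECs, and Gjc1 in aECs and tip ECs. Gja1 turned to 0.082 in rECs with 1 more marker and to 0.069 with graph clusters, and to 0.37 in Scgb3a1 ECs with 1 more marker, where 16 Control cells were left. In chondrocytes Gja5 turned to -0.56 and Gjc1 to -0.16 with thinning, and Gjb2 to -1.43 in cells with Xist UMIs. Gjc1 in mpECs with over without Dach1 turned to -0.056 without thinning. The cause was not tested.

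No paired analysis was possible because each group is 1 library and the labels give no replicate numbers, and no library could be left out for the same reason. The Control weights and the removal of cell labels present in both libraries, which left Gja4 at 2.45 over all ECs and 1.09 in aECs, were chosen after the data were seen. The intervals cover counting error only. Library, mice, sex and genotype cannot be told apart in the pooled values, and no interval describes the spread between mice. Fewer cells of a class and a wider or narrower gate also enter each level. Gjb2 had too few UMIs in the endothelial classes other than bmECs for a ratio between the libraries.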
